A study of Canis lupus familiaris with 24 samples.

Results

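The BCL2 family sets the point at which a cell commits to death through its mitochondria. Anti-apoptotic members, among them BCL2, BCL-xL (gene BCL2L1), BCL-w (gene BCL2L2) and MCL1, hold the effector proteins BAX and BAK in check. Once released by BH3-only proteins, the effectors open the outer mitochondrial membrane, and cytochrome c then starts the caspase cascade. Many cytotoxic drugs kill lymphoma cells along this route, and BCL2 itself was found at a chromosomal translocation of human follicular lymphoma. The 5 genes described here, BCL2, MCL1, BCL2L1, BCL2L2 and BAX, were taken by name. They were read through every non-control array probe whose RefSeq identifier belongs to 1 of these dog genes. The rule found 6 probes, of which 2 report BAX, and all 5 genes were among the 27720 genes or transcripts tested. BCL2L1 met the filter on dim probes through dog 2 alone, where it did so in both phases.

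The data come from lymph node cells of 4 dogs with B-cell lymphoma, aspirated with a fine needle at a drug-resistant and at a drug-sensitive phase of the disease. Total RNA was labelled with a single dye and hybridised to Agilent arrays. A group is 1 dog at 1 phase, and 3 arrays were run for each of the 8, or 24 altogether. Dog 1 was a male Shih Tzu of 10 years, dog 2 a male Doberman of 9 years, dog 3 a castrated male French Bulldog of 3 years and dog 4 a spayed female French Bulldog of 5 years. The labels give 1 age for both phases of a dog, name no drug and do not say whether the 3 arrays of a group came from separate aspirates. P-values within a dog therefore measure the spread between arrays, which may be technical, and only the 4 dogs are independent animals.

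A level is given throughout as log2 of the processed spot signal minus the 75th percentile of that array, so 0 is the 75th percentile, and a change is the resistant minus the sensitive mean on this log2 scale. The 75th percentile itself lay between a signal of 676 and 1117 over the 24 arrays, and 71.0% to 80.9% of spots were well above background. The number of arrays limits the precision. The levels of different genes come from different probes and were not set against each other. The cells were measured in bulk, so fewer cells of a type and less RNA per cell cannot be told apart. Of 16 B-cell markers only MS4A1, which encodes CD20, could be read by name. It was well above background on every array, at group means of 3.47 to 4.34 in the resistant and 3.76 to 4.13 in the sensitive phase. The arrays lay on 7 slides, and the resistant arrays of dog 4 sat alone on 1 slide scanned on another day, so in dog 4 phase cannot be told apart from slide and scan.

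BCL2, the inhibitor of apoptosis that gives the family its name, changed in opposite directions in different dogs. It fell in dogs 1 and 2 and rose in dogs 3 and 4, and the arrays of the phases did not overlap in any dog. In dog 1 its level was 2.99, 3.16 and 3.11 on the resistant arrays, against 3.93, 3.90 and 3.92 on the sensitive arrays. In dog 2 the levels were 4.40, 4.36 and 4.29 on the resistant arrays, against 4.68, 4.67 and 4.58 on the sensitive arrays. Every resistant array was thus lower than every sensitive array in these dogs, while dogs 3 and 4 ran the other way. Dog 3 had 3.48, 3.55 and 3.51 on its resistant arrays, against 3.15, 3.13 and 3.18 on its sensitive arrays. Dog 4 had 3.23, 3.18 and 3.22 on its resistant arrays, against 3.11, 3.09 and 3.03 on its sensitive arrays. The groups of dog 4 lay closest together, with the lowest resistant array only just above the highest sensitive one.

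The change in BCL2 was largest in dog 1, at -0.83 ± 0.04 (SE; limma, adjusted p = 5.14e-12), which is 1.78-fold lower in the resistant phase. It was -0.29 in dog 2 (1.23-fold lower, adjusted p = 4.92e-06), 0.36 in dog 3 (1.28-fold higher, adjusted p = 7.33e-07) and 0.14 in dog 4 (1.1-fold higher, adjusted p = 0.011), with the same SE, by the same limma fit to 24 arrays. The median of all genes moved by -0.06, 0.11, 0.02 and 0.07 in dogs 1 to 4. The calls in dogs 1 and 3 held under every alternative run. The call in dog 2 ended with arrays scaled on their median (-0.15, limma adjusted p = 0.0606). The call in dog 4 ended under that scaling (0.08, limma adjusted p = 0.394), after normexp background correction (0.01, 0.928), with the authors' value table, where the sign turned (-0.01, 0.950), and without sensitive array 3 (0.11, 0.0565). The normexp alternative, here and below, also includes quantile normalisation.

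**Figure D1:**
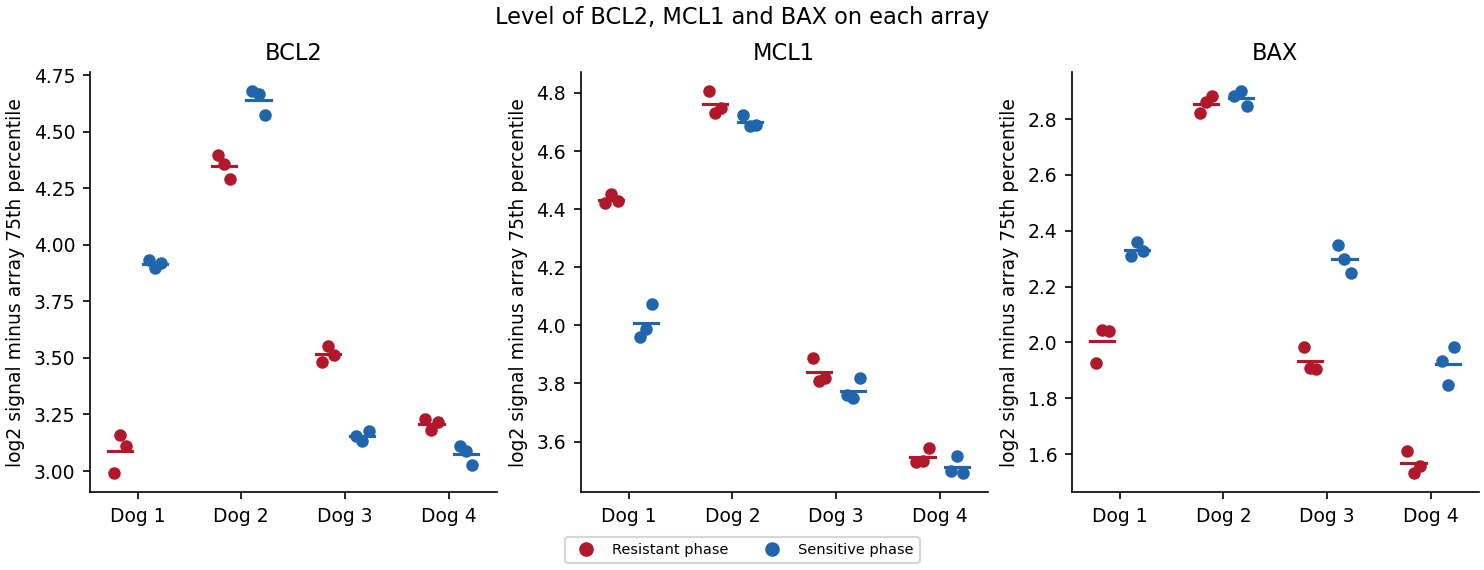
Level of BCL2, MCL1 and BAX on each array (vertical axis, log2 signal minus the array's 75th percentile) by dog (horizontal axis), with the resistant phase left of the sensitive phase and a bar at each mean of 3 arrays. BCL2 is lower in the resistant phase of dogs 1 and 2 and higher in that of dogs 3 and 4, although under the authors' value table dog 4 has the opposite sign, while BAX is lower without overlap in dogs 1, 3 and 4.

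MCL1, a short-lived anti-apoptotic protein on which many B cells depend, rose in dog 1. Whether it passed in dogs 2 and 3 depended on the scaling, and in dog 4 it passed under no alternative run. In dog 1 its level was 4.42, 4.45 and 4.43 on the resistant arrays, against 3.96, 3.99 and 4.07 on the sensitive arrays. In dog 2 the levels were 4.81, 4.73 and 4.75 on the resistant arrays, against 4.72, 4.69 and 4.69 on the sensitive arrays. The resistant arrays of both dogs were above the sensitive ones without overlap, by a wide margin in dog 1 and by a narrow one in dog 2. Dog 3 had 3.89, 3.81 and 3.82 on its resistant arrays, against 3.76, 3.75 and 3.82 on its sensitive arrays. Dog 4 had 3.53, 3.53 and 3.58 on its resistant arrays, against 3.50, 3.55 and 3.49 on its sensitive arrays. The phases overlapped in both of these dogs.

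The change in MCL1 was 0.43 ± 0.03 in dog 1 (SE; 1.34-fold higher, limma adjusted p = 3.08e-09). It was 0.06 in dog 2 (limma adjusted p = 0.114), 0.06 in dog 3 (0.135) and 0.03 in dog 4 (0.439), each with the same SE. The call in dog 1 held under every alternative run. In the other dogs the sign depended on the processing. Dog 3 passed with median scaling (0.15, limma adjusted p = 0.0372). Dog 2 had 0.21 with median scaling (limma adjusted p = 0.00348) and -0.16 with quantile normalisation (0.000216). Dogs 3 and 4 turned to -0.02 and -0.03 after normexp background correction and quantile normalisation. Dog 4 also turned with median scaling and the authors' value table.

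BCL2L1 encodes BCL-xL, a close relative of BCL2 that also binds BAX and BAK. Its probe was dim: 13 of 24 arrays were well above background, with signals of 6.1 to 154. Only dog 2 had it well above background on all of its arrays. There the level was -5.50, -5.34 and -5.23 on the resistant arrays, against -4.85, -4.55 and -2.86 on the sensitive arrays. The phases did not overlap, but sensitive array 3 stood far above the rest, with a signal of 154 against 36.9 and 44.5 on the other sensitive arrays of this dog. The change in dog 2 was -1.27 ± 0.51 (SE; 2.42-fold lower, limma adjusted p = 0.0413). Without sensitive array 3 it was -0.66 (limma adjusted p = 0.263), and the call also ended without any of the 3 resistant arrays (adjusted p = 0.066 to 0.0959) and with median scaling (-1.13, 0.067) or quantile normalisation (-1.13, 0.0869). Its size depended on the processing: it was -0.36 after normexp (limma adjusted p = 0.0172) and -0.55 with the authors' value table (0.0140). With slide as a block it was -2.50 (limma adjusted p = 0.000509), which sets the resistant arrays against sensitive array 3 alone.

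In the other dogs BCL2L1 did not pass the test. The change was -0.33 in dog 1 (limma adjusted p = 0.614), where 2 resistant and 2 sensitive arrays were well above background. With slide as a block it passed (-1.34, limma adjusted p = 0.0372), but that value rests on 1 resistant array, which was not well above background, and with slide as a random block it did not pass (-0.56, limma adjusted p = 0.420). In dog 3 the probe was well above background on 0 of 3 resistant and 1 of 3 sensitive arrays. The resistant level there is only a bound, and the sensitive mean also includes levels below background. No size of change is therefore given for dog 3 (limma adjusted p = 0.851). In dog 4, with 1 of 3 arrays well above background in either phase, the change was -0.56 (limma adjusted p = 0.400).

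BCL2L2 encodes BCL-w, an anti-apoptotic member best known for its part in sperm formation in mice. Its probe was also dim, with signals of 3.83 to 36.4 and 20 of 24 arrays well above background. In dog 1 its level was -5.27, -7.90 and -7.19 on the resistant arrays, against -5.65, -4.90 and -5.05 on the sensitive arrays. In dog 4 it was -4.33, -4.74 and -4.64 on the resistant arrays, against -5.30, -5.93 and -6.19 on the sensitive arrays. Dog 4 thus had every resistant array above every sensitive one. In dog 1, 2 resistant arrays were low and not well above background, while the remaining one lay among the sensitive arrays.

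The change in BCL2L2 passed the test only in dog 1, at -1.58 ± 0.50 (SE; 3.00-fold lower, limma adjusted p = 0.0128). That size includes the 2 resistant arrays not well above background and depended on the processing. The change was -0.27 after normexp (limma adjusted p = 0.00965) and -0.55 with the authors' value table (0.00748). The low resistant arrays 2 and 3 of dog 1 lay on another slide than its other 4 arrays. On the shared slide, with 1 resistant and 3 sensitive arrays, the change was -0.07, and with slide as a block the call ended (limma adjusted p = 0.936), as it did with slide as a random block (-0.99, 0.130), without resistant array 2 (-1.03, 0.0936) and without resistant array 3 (-1.39, 0.0547). In dog 4 the change was 1.24 and missed the threshold (limma adjusted p = 0.0534). It passed without sensitive array 1 (1.49, limma adjusted p = 0.041), after normexp background correction (0.31, 0.00476) and with the authors' value table (0.59, 0.00529). Changes in the other dogs were 0.24 in dog 2 (limma adjusted p = 0.709) and -0.40 in dog 3 (0.567). In dog 3 the resistant arrays lay below the sensitive ones without overlap.

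**Figure D2:**
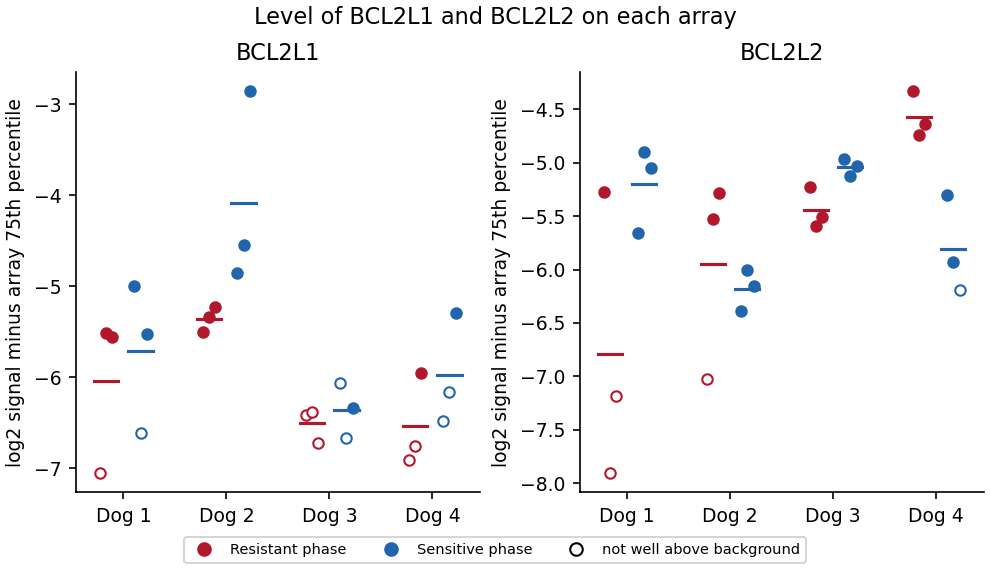
Level of BCL2L1 and BCL2L2 on each array (vertical axis, log2 signal minus the array's 75th percentile) by dog (horizontal axis), with the resistant phase left of the sensitive phase and a bar at each mean of 3 arrays. Open points were not well above background: 11 of 24 for BCL2L1, with sensitive array 3 of dog 2 the highest point at -2.86, and 4 of 24 for BCL2L2.

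BAX, the effector that forms pores in the outer mitochondrial membrane, fell in dogs 1, 3 and 4. In dog 1 its level was 1.93, 2.05 and 2.04 on the resistant arrays, against 2.31, 2.36 and 2.33 on the sensitive arrays. Dog 3 had 1.98, 1.91 and 1.90 on its resistant arrays, against 2.35, 2.30 and 2.25 on its sensitive arrays. Dog 4 had 1.61, 1.53 and 1.56 on its resistant arrays, against 1.94, 1.85 and 1.98 on its sensitive arrays. The resistant arrays lay below the sensitive ones without overlap in these 3 dogs. In dog 2 the levels overlapped, with 2.82, 2.86 and 2.88 on the resistant arrays, against 2.88, 2.90 and 2.85 on the sensitive arrays.

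The change in BAX was -0.33 ± 0.04 in dog 1 (SE; 1.26-fold lower, limma adjusted p = 1.65e-06), -0.37 in dog 3 (1.29-fold lower, 5.82e-07) and -0.35 in dog 4 (1.28-fold lower, 1.39e-06). In dog 2 it was -0.02 (limma adjusted p = 0.679). The BAX probe not used for the gene gave -0.24, -0.01, -0.23 and -0.29 in dogs 1 to 4 and passed the limma test in the same 3 dogs, with adjusted p-values of 9.33e-05, 0.000158 and 1.64e-05 in dogs 1, 3 and 4. The calls in dogs 3 and 4 held under every alternative run, and that in dog 1 ended with median scaling (-0.15, limma adjusted p = 0.0607). In dog 4 slide as a block gave no value, because phase cannot be told apart from slide and scan there. The sign in dog 2 depended on the processing, at 0.12 with median scaling (limma adjusted p = 0.0996), 0.01 with slide as a block (0.921) and -0.18 with quantile normalisation (0.000588).

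Scaling on the array median in place of the 75th percentile moved the median change of all genes by 0.18, 0.15, 0.09 and -0.06 in dogs 1 to 4. Relative to the median of all genes, which is free of that choice, BCL2 changed by -0.77, -0.40, 0.34 and 0.07 in dogs 1 to 4. On the same footing BAX changed by -0.27, -0.13, -0.39 and -0.42, and MCL1 by 0.49, -0.05, 0.04 and -0.03. The order of the dogs for BCL2 was the same on both footings, and BAX lay below the typical gene in every dog. Dogs 1, 2 and 3 each had 1 slide that held both phases, with 3 arrays of one phase and 1 of the other. Within that slide BCL2 changed by -0.92, -0.23 and 0.33 in dogs 1, 2 and 3, MCL1 by 0.41, 0.07 and 0.11, and BAX by -0.41, 0.0070 and -0.31. BCL2L2 changed there by 0.21 in dog 2 and by -0.19 in dog 3.

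Counted over the 5 genes, 4 passed the limma test at an adjusted p under 0.05 in dog 1 (1 rose and 3 fell), where 55% of all 27720 features passed. In dog 2, 2 of 5 passed (both fell), against 59.7% of all features; the count there was 1 with median scaling and 4 after normexp background correction. In dog 3, 2 of 5 passed (1 rose and 1 fell), against 44.6%. In dog 4, 2 of 5 passed (1 rose and 1 fell), against 46.4%. With so many features past the test in each dog, these shares do not set the family apart from other genes. Their median change was -0.33, -0.02, -0.15 and 0.03 in dogs 1 to 4, beside the medians over all features given above. The median in dog 3 is the measured change of BCL2L1, whose resistant level there is only a bound.

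Few of these changes were large. With a change of at least 2-fold also required, 1 of 5 genes remained in dog 1 (BCL2L2), against 11.9% of all features, and 1 of 5 in dog 2 (BCL2L1), against 13.8%. None of the 5 remained in dog 3, against 6.77% of all features, and none in dog 4, against 5.56%. Both genes that remained are the dim ones, whose calls rest on single arrays as described above. Arrays of the phases did not overlap for 3 of 5 genes in each dog, against 62.3%, 68.8%, 55% and 56.5% of all features in dogs 1, 2, 3 and 4.

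**Figure D3:**
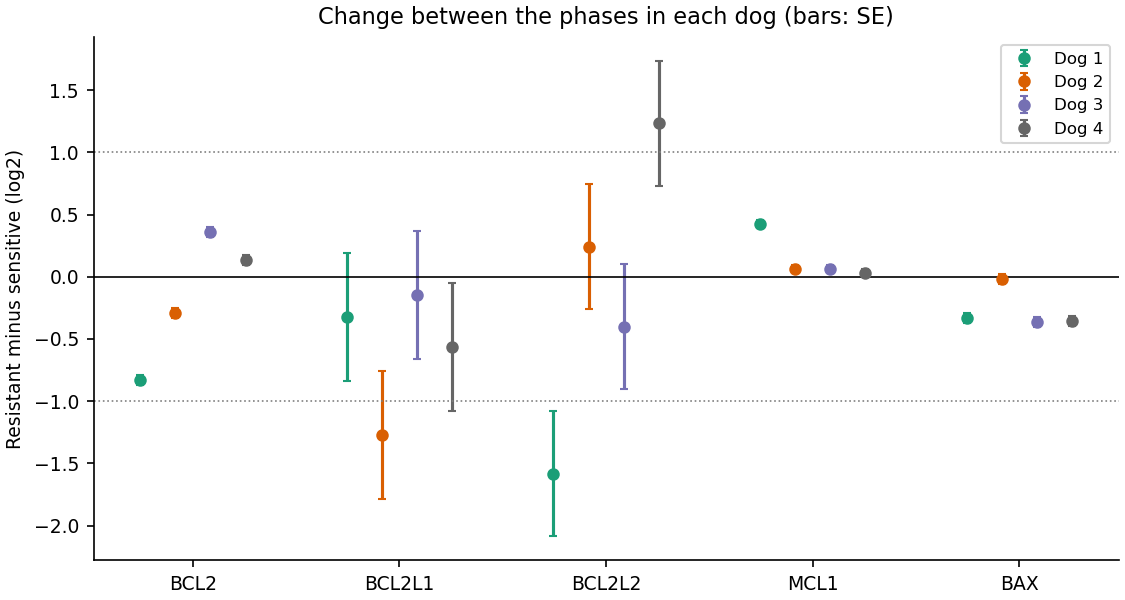
Change of each gene between the phases (vertical axis, resistant minus sensitive, log2) in dogs 1 to 4, with bars of 1 SE from the limma fit and dotted lines at 2-fold. BCL2 runs from -0.83 in dog 1 to 0.36 in dog 3, BAX is near -0.35 in every dog but dog 2, and the dim BCL2L1 and BCL2L2 have SEs of 0.51 and 0.50; the BCL2L1 point of dog 3 includes a resistant level below background; signs of BCL2 in dog 4, MCL1 in dogs 2 to 4 and BAX in dog 2 turn under some scalings.

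The changes differed among the dogs for 4 of the 5 genes (limma F-test of the dog-by-phase interaction), against 78.8% of all features. The adjusted p of this limma test was 9.61e-12 for BCL2, 8.46e-07 for MCL1, 5.94e-05 for BAX and 0.0114 for BCL2L2, and 0.475 for BCL2L1. Each of the 6 pairs of dogs differed in the change of BCL2, by 0.23 (dog 3 minus dog 4) at the least and by -1.19 (dog 1 minus dog 3) at the most. For MCL1 the 3 pairs that differed all held dog 1, and for BAX they all held dog 2. For BCL2L2, 2 pairs differed, dog 1 from dog 2 and dog 1 from dog 4. The share of all features past these tests of pairs was not counted, so the counts do not set the genes apart. With slide as a block, over dogs 1 to 3, BCL2L2 no longer passed the interaction test (limma adjusted p = 0.89) and BCL2L1 did (0.021), although with slide as a random block over all dogs BCL2L1 did not (0.295). BAX missed it after normexp background correction (limma adjusted p = 0.0765).

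Across the 4 dogs, with the dog as the replicate, none of the 5 genes passed, and 0% of all features did. In this limma fit 1603 of 27720 features (5.78%) had an unadjusted p under 0.05, and the lowest adjusted p was 0.369. BAX averaged -0.27 ± 0.13 (SE, n = 4 dogs; limma adjusted p = 0.886) and was lower in 4 of 4 dogs, a count that median scaling and slide as a block reduce through dog 2. With all 24 arrays and the group as a random block, BAX passed at the same size (limma adjusted p = 0.0444), as did 6.23% of all features. That fit takes 1 correlation between arrays of a group, 0.805, for all genes, so arrays count partly as replicates. Its p-value thus does not rest on independent animals alone. BCL2L1 averaged -0.58 ± 0.22 (limma adjusted p = 0.861, unadjusted p = 0.047) and was also lower in 4 of 4 dogs, with the resistant level of dog 3 below background, although normexp background correction turns dog 3, and dog 1 turns without its resistant array 1 or sensitive array 1. Both are among the 7.09% of all features that were lower in every dog. MCL1 averaged 0.15 ± 0.14 (limma adjusted p = 0.887) and was higher in 4 of 4 dogs, a count that median scaling, quantile normalisation, normexp background correction and the authors' value table each lower. BCL2 averaged -0.16 ± 0.23 (limma adjusted p = 0.915) and BCL2L2 -0.13 ± 0.47 (0.970), each higher in 2 dogs and lower in 2. Both turned sign without dog 1, to 0.068 for BCL2 and 0.36 for BCL2L2.

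Most of the variation in the bright genes lay between dogs. Of the sum of squares over the 24 arrays, dogs took 82.1% for BCL2, 94.1% for MCL1 and 87.0% for BAX, while the median over all genes was 56.6%. Phase took 1.85%, 2.45% and 9.48% for these genes, against a median of 3.96% for all genes. The part in which dogs differed in their phase change was 15.6% for BCL2, 3.02% for MCL1 and 2.70% for BAX, each below the median of 17.2% for all genes. Spread between arrays of a group made up under 1% for each of them, but 33.0% for BCL2L1 and 38.4% for BCL2L2. These shares are descriptions and were not tested.

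Dog 2 had the highest levels of BCL2, MCL1 and BAX in both phases. For BCL2 the order of the group means was dog 2 sensitive (4.64), dog 2 resistant (4.35), dog 1 sensitive (3.92), dog 3 resistant (3.52), dog 4 resistant (3.21), dog 3 sensitive (3.15), dog 1 resistant (3.09) and dog 4 sensitive (3.07). The last 3 overlapped with their neighbours and the others did not. For MCL1 the order ran by dog, 2, 1, 3 and 4, with the resistant above the sensitive mean in each, from 4.76 in dog 2 resistant to 3.51 in dog 4 sensitive. The phases of dog 3 and of dog 4 overlapped, and every other pair of neighbours was separate. BAX was lowest in dog 4 resistant, at 1.57 and separate from the rest, and highest in dog 2, at 2.86 resistant and 2.88 sensitive, which overlapped. Between them, dog 1 resistant (2.00), dog 3 resistant (1.93) and dog 4 sensitive (1.92) overlapped in turn, as did dog 1 sensitive (2.33) and dog 3 sensitive (2.30). For BCL2L1 the highest mean was -4.09 in dog 2 sensitive, separate from -5.36 in dog 2 resistant, and the groups of the other dogs, each with 0 to 2 of 3 arrays well above background, were not put in order. For BCL2L2 the highest mean was -4.57 in dog 4 resistant, separate from the rest, and below it all neighbours overlapped.

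The balance between an inhibitor and BAX was followed as the log2 difference of the 2 genes within each array. Only its change between phases can be read, because the size of the difference depends on the probes. BCL2 minus BAX changed by -0.50 in dog 1 and -0.27 in dog 2, and by 0.73 in dog 3 and 0.49 in dog 4. The array SDs of this difference were 0.02 to 0.08 in the resistant and 0.03 to 0.10 in the sensitive phase, and the phases did not overlap in any dog. Single features did not overlap in 62.3%, 68.8%, 55% and 56.5% of cases in dogs 1 to 4, and the share among other pairs of genes was not counted. BCL2 was thus lower relative to BAX in the resistant phase of dogs 1 and 2 and higher in that of dogs 3 and 4, with the same signs under every alternative run. In dogs 3 and 4 BCL2 was higher and BAX lower, apart from the sign of BCL2 in dog 4 under the authors' value table. In dog 1 both were lower, and BCL2 by more.

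MCL1 minus BAX was higher in the resistant phase of all 4 dogs, by 0.75, 0.08, 0.43 and 0.39 in dogs 1 to 4, and no arrays of the phases overlapped. How many other pairs of genes had 1 sign in all 4 dogs, or no overlap, was not counted. The signs of MCL1 minus BAX also held under every alternative run, where dog 2 had 0.01 to 0.13. In dogs 3 and 4 the change in this difference came with a change in BAX, while MCL1 itself did not pass the test. BCL2 minus MCL1, a pair chosen after the values were seen, changed by -1.25, -0.35, 0.30 and 0.10 in dogs 1 to 4, again without overlap. In dog 1 these inhibitors thus went opposite ways.

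The balances of the dim genes against BAX were mostly within the spread between arrays. BCL2L1 minus BAX changed by 0.0021, -1.25 and -0.21 in dogs 1, 2 and 4, with arrays separate only in dog 2, and dog 3 is left out because its resistant BCL2L1 level is only a bound. BCL2L2 minus BAX changed by -1.26, 0.26, -0.04 and 1.59, with arrays separate only in dog 4. The array SD in dog 1 reached 0.81 and 1.43 for these differences in the resistant phase, against 0.85 and 0.38 in the sensitive phase.

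**Figure D4:**
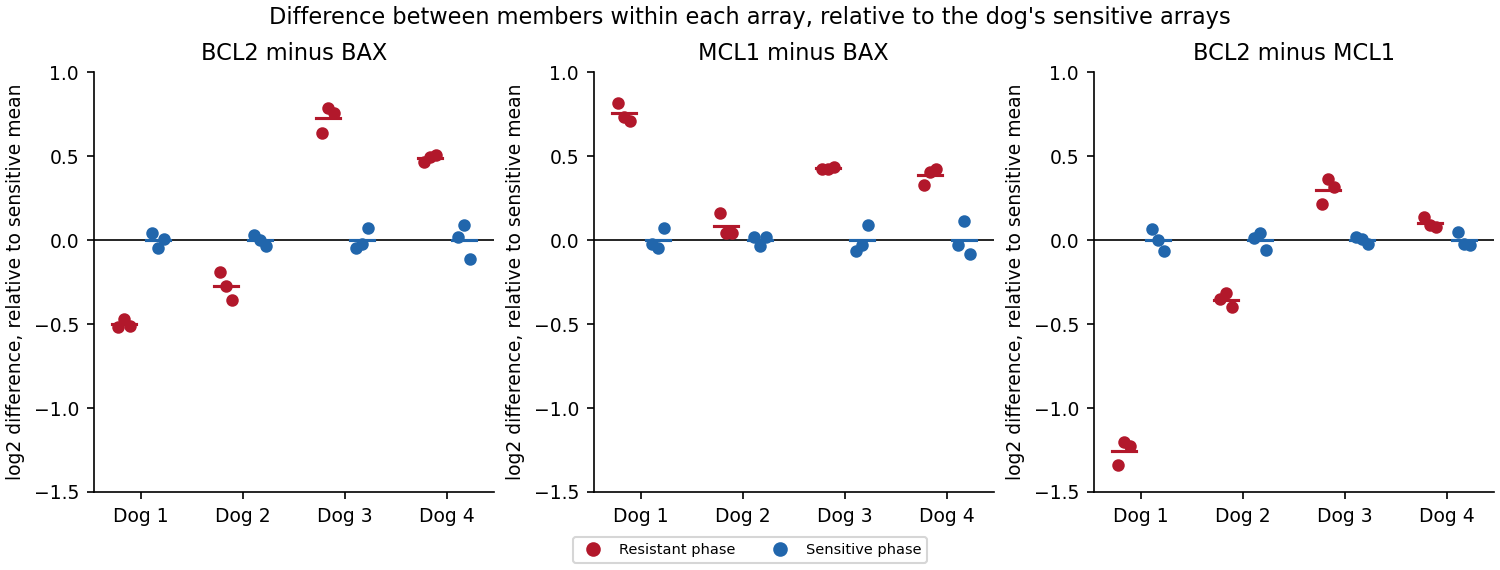
Log2 difference of BCL2 and BAX, MCL1 and BAX, and BCL2 and MCL1 within each array, relative to the mean of the sensitive arrays of the same dog (vertical axis), by dog (horizontal axis), with the resistant phase left of the sensitive phase. BCL2 minus BAX is lower in the resistant phase of dogs 1 and 2 and higher in that of dogs 3 and 4, and MCL1 minus BAX is higher in the resistant phase of all 4 dogs.

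Of 111 other genes of the apoptosis pathway that were listed, 23 could be read by name. BAK1, the other effector, rose in dogs 1, 3 and 4, by 0.52, 0.33 and 0.34 ± 0.06 (SE; limma adjusted p = 5.69e-07, 0.000143 and 0.00013), and fell by 0.22 in dog 2 (limma adjusted p = 0.00297). In dogs 1, 3 and 4 it thus went the opposite way to BAX. BAD, a BH3-only protein that frees BAX and BAK by binding BCL2 and BCL-xL, rose in dogs 2 and 3, by 0.33 and 0.23 ± 0.05 (SE; limma adjusted p = 6.83e-06 and 0.000482). In dogs 1 and 4 it changed by -0.11 and 0.11 and did not pass (limma adjusted p = 0.0576 and 0.0677).

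Downstream of the mitochondria, DIABLO, which releases caspases from their inhibitors, rose by 0.12 in dog 3 and 0.19 in dog 4. CASP9, the caspase started by cytochrome c, rose by 0.24 in dog 3 and fell by 0.17 in dog 2 and by 0.19 in dog 4. CASP8, which death receptors start, fell by 0.48 in dog 1 and by 0.13 in dog 4 and rose by 0.19 in dog 2. The inhibitors of apoptosis had no common direction. BIRC5, or survivin, rose by 0.59 in dog 2 and fell by 0.18 in dog 1 and by 0.47 in dog 3. BIRC3 changed as BCL2 did in sign, with -0.12, -0.21, 0.29 and 0.09 in dogs 1 to 4, all past the limma test. With median scaling the calls of BIRC3 in dogs 1, 2 and 4 ended, and the sign in dog 1 turned (0.06). BIRC2 rose in dogs 1 and 2 (0.18 and 0.41) and fell by 0.20 in dog 4.

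Upstream, MDM2, the inhibitor of p53, rose by 0.18 in dog 1 and fell by 0.16 in dog 3. TNF, a death receptor ligand, fell in dogs 1, 2 and 3, with changes of -0.23, -0.68 and -0.12. Over the 23 genes, 7 rose and 10 fell in dog 1, 9 and 9 in dog 2, 10 and 6 in dog 3, and 6 and 6 in dog 4, by the limma test. Among all features 55%, 59.7%, 44.6% and 46.4% passed in dogs 1 to 4. The median change was -0.12, 0.04, 0.07 and 0.04, and none passed across the dogs. Of these 63 calls, 22 ended under at least 1 of median scaling, quantile normalisation, normexp background correction and the authors' value table. Among the calls described here, besides BIRC3, these were BAK1 and CASP9 in dog 2, BIRC5 in dog 1, DIABLO and MDM2 in dog 3, TNF in dogs 1 and 3, KIT in dog 2, and NFKB1 in dogs 1 and 2. The sign turned in dog 1 for BIRC3, BIRC5 and AKT2 and for no other call. With slide as a random block, 7 rather than 12 of the 23 passed in dog 4.

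Of the 23 genes, those past the limma test with a change of at least 2-fold were all cytokines, ligands or receptors listed upstream of the family, numbering 1, 4, 3 and 1 in dogs 1 to 4, against 11.9%, 13.8%, 6.77% and 5.56% of all features. CD40LG, the T-cell ligand that sends survival signals to B cells through CD40, changed by -0.94, -2.16 and -1.32 ± 0.11 (SE) in dogs 1, 2 and 3 (limma adjusted p = 7.69e-07, 4.50e-12 and 1.17e-08) and by -0.06 in dog 4 (0.716). IL6 was at least 2.97-fold higher in the resistant phase of dog 3, where none of the sensitive arrays was well above background (limma adjusted p = 4.42e-06). It changed by 1.86 in dog 2 (limma adjusted p = 1.21e-05), with 1 of 3 sensitive arrays well above background. KITLG, the ligand of KIT, was at least 1.56-fold lower in the resistant phase of dog 1, where no resistant array was well above background (limma adjusted p = 9.99e-10), and fell by 1.34 in dog 2 (limma adjusted p = 1.03e-05). The count of 1 in dog 1 is KITLG, whose measured change there exceeds 2-fold but whose bound does not. KIT fell by 1.23 ± 0.47 (SE) in dog 2 (limma adjusted p = 0.033) and by 1.53 in dog 3 (0.0138). Its resistant mean in dog 2 was -6.01, with 2 of 3 arrays well above background. IL2RA, named after its values were seen, fell by 1.14 in dog 4.

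**Figure D5:**
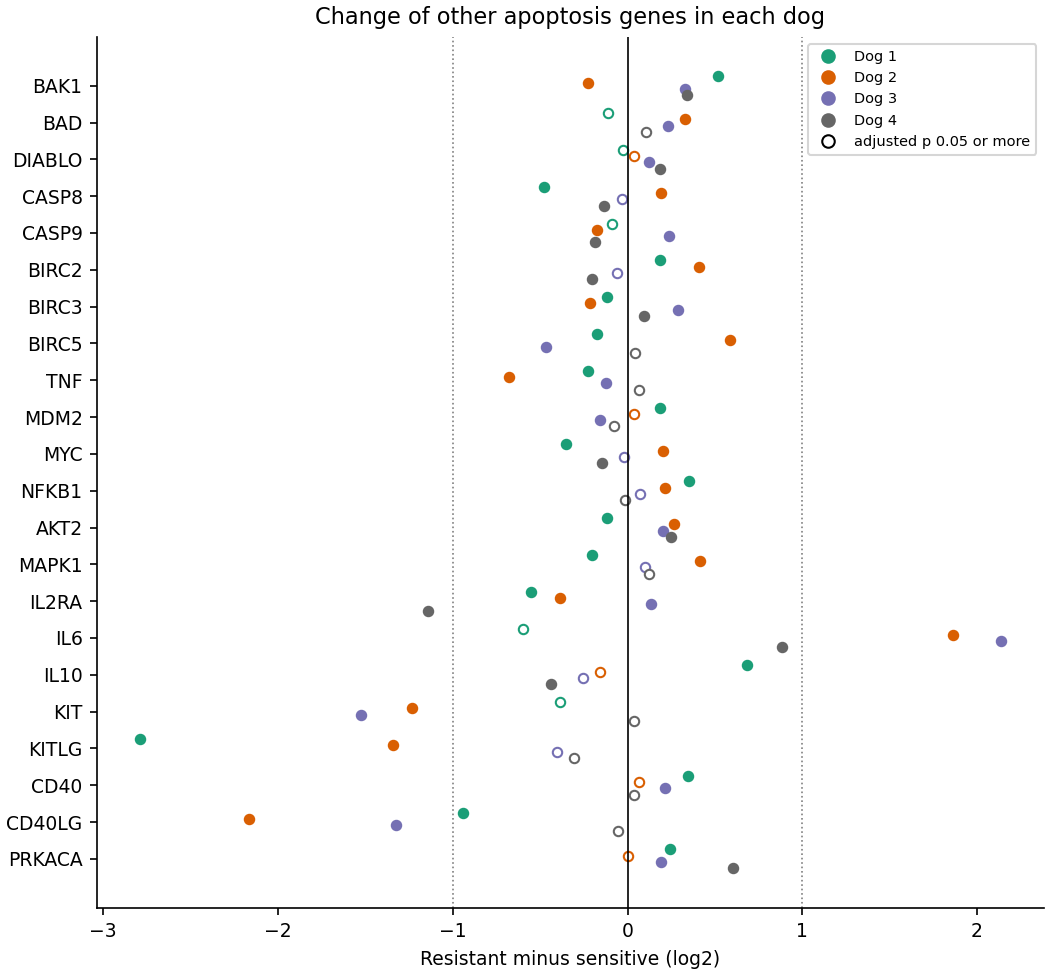
Change of 22 of the 23 other apoptosis genes read by name (rows) in dogs 1 to 4 (colours), resistant minus sensitive on the log2 scale (horizontal axis), with filled points past the limma test at an adjusted p under 0.05 and dotted lines at 2-fold. BAK1 lies above 0 in dogs 1, 3 and 4 and below it in dog 2, and the points beyond 2-fold belong to KITLG, CD40LG, IL6, KIT and IL2RA, where the points of KITLG in dog 1 and IL6 in dog 3 include levels below background.

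Markers of other cells moved with phase in several dogs, as sums of signal in multiples of the array's 75th percentile. The 5 of 13 T-cell markers read by name summed to 0.273 to 0.285 on the resistant arrays of dog 2, against 4.42 to 4.65 on its sensitive arrays, and CD28 and ICOS were well above background on none of the resistant arrays there. T-cell sums were 0.248 to 0.275 resistant and 0.394 to 0.460 sensitive in dog 1, 0.315 to 0.429 and 0.482 to 0.535 in dog 3, and 0.502 to 0.537 and 0.350 to 0.416 in dog 4. The 2 of 9 NK and cytotoxic markers (KLRD1 and CCL5) summed to 0.457 to 0.510 resistant and 36.0 to 37.0 sensitive in dog 2. The T-cell sum was thus lower in the resistant phase of dogs 1, 2 and 3 and higher in that of dog 4. Of the 5 T-cell markers, 3, 5 and 3 fell in dogs 1, 2 and 3 by the limma test, and 3 rose in dog 4. CD4 in dog 3 (0.13, limma adjusted p = 0.505) and CD8A in dog 4 (-0.36, 0.464) had the opposite sign to the sum and did not pass.

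The sum of the 5 of 9 neutrophil markers was lower in the resistant phase of dog 1 (0.266 to 0.321, against 2.22 to 2.41) and of dog 3 (0.151 to 0.187, against 3.19 to 3.35) and higher in that of dog 2 (1.13 to 1.17, against 0.148 to 0.205). Single markers went the other way: ELANE rose by 1.44 in dog 1, and CXCL8 rose by 0.40 in dog 3 and fell by 0.63 in dog 2. The sum of the 8 of 11 stroma markers was lower in the resistant phase of all 4 dogs, with 1.18 to 1.22 against 2.41 to 2.42 in dog 1, 2.69 to 2.97 against 8.46 to 8.91 in dog 2, 4.87 to 5.10 against 15.3 to 15.7 in dog 3 and 3.12 to 3.24 against 4.43 to 5.07 in dog 4. Of these 8, 4, 6, 7 and 5 fell in dogs 1 to 4, and 2 rose in dog 1 (CCL19 by 2.50 and CCL21 by 0.58). The single B-cell marker MS4A1 fell in dogs 1 and 4 (-0.29 and -0.28 ± 0.03 SE) and rose in dogs 2 and 3 (0.16 and 0.21), all past the limma test. The call in dog 1 ended with median scaling (-0.11, limma adjusted p = 0.112). The sign in dog 2 turned with quantile normalisation (-0.03) and after normexp background correction (-0.01). The part of these cells in the changes of BCL2, MCL1, BCL2L1, BCL2L2, BAX and the upstream genes was not tested.

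Among the 717 other genes with a name, those whose 8 group means ran most like a member were listed by Pearson correlation. These 8 means share dogs and arrays, 2 to a dog, and the values are descriptions. For BCL2 they were SLC6A4 (0.95, not well above background in every group), RBM47 (0.95) and CLN3 (0.93). For MCL1 they were NFKB1 (0.95), GNGT2 (0.95) and RAC1 (0.95), and for BAX they were CD80 (0.94), MAPK14 (0.93) and SLC11A1 (0.92). NFKB1 is also 1 of the 23 pathway genes, and it rose in dogs 1 and 2 (0.35 and 0.21 ± 0.05 SE; limma adjusted p = 8.99e-06 and 0.00125). For BCL2L1, whose means outside dog 2 include levels below background, they were EMR4 (0.94), RAB1A (0.94) and CCL4 (0.93), and for BCL2L2 FGF7 (0.93, not well above background in every group) and POMGNT2 (0.89). Between members the correlation was 0.86 for BCL2 and BAX, 0.82 for MCL1 and BAX, 0.75 for BCL2 and MCL1, and below 0 for BCL2L2 with each of the other 4.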

How the data were processed

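The deposited scanner files hold processed spot intensity, made with Agilent Feature Extraction 10.7.3.1 per the submitters' processing notes. This deposited intensity was already background-subtracted and detrended inside each array, per the file headers. The authors' value table, also deposited, held raw median intensity (largest difference 0). No genome build is given in the sources used here. Values are log2 of the deposited processed intensity minus each array's 75th percentile. The 1417 control spots of 45220 and outlier spots were left out, and 0 spots were saturated. Probes had to be well above background on all 3 arrays of some group (34551 of 43603 were), and the brightest probe stood for each gene. Names came from RefSeq accessions, which matched 832 of 35908 identifiers. Unmatched features were tested without a name.

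Within dogs, limma (version 3.58.1, R 4.3.3) was fitted to 24 arrays in 8 groups; across dogs, to the 8 means with dog as a block. P-values were adjusted by Benjamini-Hochberg over 27720 features, two-sided. A gene passed at an adjusted p under 0.05; the planned call also asks for a change of 2-fold, and both counts are given. The fits were tested on simulated data. Figures were drawn with matplotlib (version 3.10.9).

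The members and lists were chosen with earlier results of these data known. Named genes were the 5 members, measured BCL2 family genes, up to 4 genes of largest change per other pathway list, and the 3 genes most like each member. The values of 1 pathway gene and of 1 gene most like BCL2L2 are not reported here. The call without a fold limit, the pairs of dogs, BCL2 minus MCL1 and slide as a random block were chosen after seeing the data. Replicate numbers of the labels did not pair the arrays: correlations of the deviations of same-numbered arrays were -0.132 to 0.089 over 12 pairs, none over 0.1. Alternatives were other scalings and background corrections (normexp with an offset of 50, on the median signal in place of the planned mean), the authors' table, filters, probe rules, slide, replicate number and leaving out each array or dog. Quantile normalisation followed normexp in each case.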

Additional observations from a re-analysis of the deposited data

Results flagged for a closer look

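Over the 4 dogs, the change of MCL1 in dog 1 (0.43) and that of BAX in dog 2 (-0.0212) each stood apart from the other 3 dogs by more than Dixon's limit for an outlying value, with a gap of 0.925 and 0.891 of the whole range. Chance gives such a value in about 1 of 20 groups tested. MCL1 in dog 1 differed from each other dog in the limma test of the pairs, as did BAX in dog 2. That test uses the same changes and was chosen after seeing the data, so it is no separate support. After normexp background correction BAX changed by -0.22 in dog 2, and its interaction missed the threshold (limma adjusted p = 0.0765).

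The phase change differed among the dogs by limma's interaction test for BCL2 (adjusted p = 9.61e-12), MCL1 (8.46e-07), BAX (5.94e-05) and BCL2L2 (0.0114). The test sets dogs against the spread between arrays, and 78.8% of all features passed it.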

How the results depend on the processing

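The calls of BCL2 in dogs 1 and 3, MCL1 in dog 1, and BAX in dogs 3 and 4 kept their direction and stayed past the limma test under every alternative run, as did the interaction of BCL2 and of MCL1. Slide as a block gave no value in dog 4, where phase cannot be told apart from slide and scan. The cause was not tested for any change below, and adjusted p-values are from limma. Scaling on the array median moved the median change of all genes by 0.18, 0.15, 0.09 and -0.06 in dogs 1 to 4. Under it BAX changed by -0.15 in dog 1 and 0.12 in dog 2, BCL2 by -0.15 in dog 2 and 0.075 in dog 4, BCL2L1 by -1.13 in dog 2, and MCL1 by 0.21, 0.15 and -0.027 in dogs 2, 3 and 4, and 1 member passed in dog 2 (0 at 2-fold) and 1 in dog 4. Quantile normalisation gave BCL2L1 -1.13, MCL1 -0.16 and BAX -0.18 in dog 2, 0 members at 2-fold there, and MCL1 minus BAX 0.68 in dog 1 and 0.012 in dog 2. With normexp, 4 members passed in dog 2 and 0 at 2-fold in dogs 1 and 2. MCL1 changed by -0.16, -0.018 and -0.028 in dogs 2, 3 and 4, BAX by -0.22 in dog 2, BCL2L1 by 0.0091 in dog 3, BCL2 by 0.0079 and BCL2L2 by 0.31 in dog 4, and BCL2L2 by 0.023 across dogs, and the interaction of BAX had an adjusted p of 0.0765. The balances under normexp were -0.33 and 0.34 for BCL2 minus BAX in dogs 1 and 4, -0.14 for BCL2L1 minus BAX in dog 2, 0.32 and 0.64 for BCL2L2 minus BAX in dogs 3 and 4 (higher in 4 dogs), and -1.05 and 0.036 for BCL2 minus MCL1 in dogs 1 and 4. The authors' value table gave 0 members at 2-fold in dogs 1 and 2, BCL2 -0.0057, BCL2L2 0.59 and MCL1 -0.051 in dog 4, and BCL2L2 0.022 across dogs. Its balances were -0.32 and 0.35 for BCL2 minus BAX in dogs 1 and 4, 0.95 for BCL2L2 minus BAX in dog 4, and -1.11 and 0.045 for BCL2 minus MCL1 in dogs 1 and 4. With the mean of probes, BCL2L1 minus BAX was higher in 1 dog. With slide as a block, BCL2L1 changed by -1.34 and BCL2L2 by -0.069 in dog 1, and BAX by 0.00695 in dog 2, and over dogs 1 to 3 the interaction had an adjusted p of 0.021 for BCL2L1 and 0.89 for BCL2L2. With slide as a random block, BCL2L2 changed by -0.99 in dog 1, 0 members passed at 2-fold there, the interaction of BCL2L2 had an adjusted p of 0.14, and 7 pathway genes passed in dog 4. With 24 arrays and the group as a random block, BAX passed across dogs (-0.27, adjusted p = 0.0444), as did 1726 features (6.23%). In that fit arrays count partly as replicates, so it does not rest on independent animals alone. Without dog 1, the change across dogs was 0.068 for BCL2 and 0.36 for BCL2L2.

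Leaving out each array in turn gave 0.11 to 0.15 for BCL2 in dog 4, -0.78 to 0.18 for BCL2L1 in dog 1 (0.03 without sensitive array 1, 0.18 without resistant array 1), -1.65 to -0.66 for BCL2L1 in dog 2, and -0.092 to 0.78 (dog 2), -2.34 to -1.03 (dog 1), 1.04 to 1.49 (dog 4) and -0.32 to 0.012 (across dogs; 0.0077 without dog 2 resistant array 1) for BCL2L2. The members that passed numbered 1 to 2 in dog 2 and 1 to 3 in dog 4, and at 2-fold 0 to 1 in dogs 1, 2 and 4. BCL2L1 minus BAX and BCL2L2 minus BAX were higher in 1 to 3 and 1 to 3 dogs. With the replicate number as a replicate block, 4 of the 12 same-numbered pairs correlated best with their own number, no call of a member changed, and 4, 2, 2 and 2 members passed in dogs 1 to 4. Without the dog as a block, no member passed across dogs. BCL2L1 and BCL2L2 give no value when a probe must be well above background on all 24 arrays. The array SD of BCL2L1 reached 1.07, in dog 2 sensitive, where 3 of 3 arrays were well above background. That of BCL2L2 reached 1.36, in dog 1 resistant, where 1 of 3 was. For BCL2 it was at most 0.09.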
